A study of Mus musculus with 32 samples.

Results

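Trem2, its adaptor Tyrobp, the Fc receptor adaptor Fcer1g, the IgG receptors Fcgr1, Fcgr2b, Fcgr3 and Fcgr4, and the Fc receptor-like gene Fcrls were followed through 32 libraries of polyadenylated mouse brain RNA. The members were taken by symbol, and all 8 have a row among the 24411 genes of the count table. Mice of C57BL/6 strain carried either Cx3cr1-CreER or Sall1-CreER, drug-inducible forms of Cre recombinase, together with RPL22-HA (RiboTag), an allele that puts a haemagglutinin (HA) epitope on a ribosomal protein after Cre has acted. Every mouse, the controls included, was given tamoxifen by gavage between 4 and 6 weeks of age, in 4 doses of 5 mg with a day between doses, so no group lacked the drug or the tagged allele. There were 4 mice of each line, and a brain was split into 4 samples, so the libraries form 8 groups of 4. HA and IgG are precipitates of whole brain homogenate with antibody to HA or with mouse IgG1 as the control, Sort is RNA of sorted microglia, and SortIP is the anti-HA precipitate of sorted microglia. Mice are numbered 1, 2, 3 and 4 in the Cx3cr1 line and 7, 9, 17 and 21 in the Sall1 line. For the 8 sorted Cx3cr1 libraries the title and the antibody label name one fraction and the description the opposite one. Groups follow the titles here, and values by description are given where they differ. Sorted cells of the lines are compared in sums of the Sort and SortIP counts of a mouse, which are the same under either label. Each sum weighs the fractions by library depth, so the weight of a fraction in the Cx3cr1 sums still depends on the label.

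TREM2 is a lipid-sensing receptor of microglia that has no signalling tail of its own. It signals through TYROBP (DAP12), whose ITAM motif recruits the kinase SYK. The activating Fc receptors bind the constant part of IgG and signal in the same way through the FCER1G gamma chain, whereas FCGR2B carries an inhibitory motif in its own tail. FCRLS resembles Fc receptors in sequence and is used as a marker of mouse microglia.

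Total gene counts ranged from 286418 to 574671 per library for Cx3cr1 HA, were 1894943 to 3027342 for Sall1 HA, ran from 704183 to 4047465 in the IgG groups and from 249881 to 1808789 in the sorted groups. The 12 microglia markers summed to between 38772 and 53832 CPM, the counts scaled to library total, in the sorted libraries, 41214 to 47186 in Cx3cr1 HA, 2855 to 3381 in Sall1 HA and 575 to 976 in IgG. Microglia markers were thus lower in HA precipitates of the Sall1 line than of the Cx3cr1 line, and markers of other glia were higher. The 8 astrocyte markers summed to between 5316 and 8199 CPM in Sall1 HA and to between 503 and 797 in Cx3cr1 HA. The 9 border macrophage markers summed to between 639 and 899 CPM in Cx3cr1 HA and to between 18.5 and 28.7 in Sall1 HA. Monocyte markers reached at most 31.6 CPM in any library, with Ccr2 at 0 in both HA groups, and the NK and T cell markers at most 10.5 CPM. Neutrophil markers reached 236 CPM in Sall1 SortIP of mouse 21, the shallowest library, and at most 39.9 CPM in all others. In such bulk samples fewer microglia, less RNA per microglial cell and a larger share of RNA from other cells cannot be told apart.

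Of the 8 genes, 4 lie within 274 kb of mouse chromosome 1 (build mm9 of the count table). There Fcgr2b spans chr1:172890689-172906202 on the minus strand, Fcgr4 chr1:172949057-172959892 on the plus strand, Fcgr3 chr1:172981300-172989534 on the minus strand and Fcer1g chr1:173159703-173164480 on the minus strand. Fcrls (chr3:87054887-87067446) and Fcgr1 (chr3:96086832-96097892) are on the minus strand of chromosome 3, Tyrobp is at chr7:31198807-31202598 and Trem2 at chr17:48485726-48491601, both on the plus strand. Counts are summed over exons, whose length is shortest in Tyrobp at 559 bases and longest in Fcgr1 at 2581. No other gene of the table overlaps a member. The nearest is Hcst, the adaptor DAP10, which lies 133 bases from Tyrobp on the other strand. Fcgr2b and Fcgr3 have near-identical extracellular sequence, and the sources used here do not say how reads that fit both were counted, so the split between them is uncertain.

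Promoter windows of 7 of the 8 genes were matched by symbol in RefSeq (build GRCm38.p6). Since most members were higher or lower together between groups (though not among the sorted libraries), the 120 bases before the start are shown for those that hold the letters GAGGAA, a core bound by the myeloid factor PU.1, and for Fcgr2b, which does not hold them. They were searched on both strands, so that TTCCTC is the same word on the opposite strand, and every match is in capitals.
Trem2: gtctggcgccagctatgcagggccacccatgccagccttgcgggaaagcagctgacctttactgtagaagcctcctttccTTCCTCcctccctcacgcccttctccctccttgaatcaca
Fcgr1: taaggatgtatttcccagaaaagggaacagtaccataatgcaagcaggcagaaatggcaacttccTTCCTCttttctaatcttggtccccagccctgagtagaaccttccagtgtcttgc
Fcgr3: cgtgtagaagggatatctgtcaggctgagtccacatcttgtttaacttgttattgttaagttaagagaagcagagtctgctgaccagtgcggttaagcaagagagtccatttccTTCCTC
Fcgr4: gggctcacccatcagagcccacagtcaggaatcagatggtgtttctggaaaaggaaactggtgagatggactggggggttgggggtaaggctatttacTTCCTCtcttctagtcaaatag
Fcgr2b: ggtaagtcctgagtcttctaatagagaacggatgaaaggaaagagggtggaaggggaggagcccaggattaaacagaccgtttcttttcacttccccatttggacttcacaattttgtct
These windows are chr17:48346281-48346400 (plus strand) for Trem2, chr3:96293970-96294089 (minus) for Fcgr1, chr1:171059404-171059523 (minus) for Fcgr3, chr1:171018806-171018925 (plus) for Fcgr4 and chr1:170976072-170976191 (minus) for Fcgr2b. The word begins 40 bases before the start in Trem2, 55 in Fcgr1, 6 in Fcgr3 and 22 in Fcgr4, in each case as TTCCTC. Fcgr3 has another entry, not shown, with a start that places the word 15 bases before it. Fcer1g and Fcrls have no match in the 120 bases, and Fcrls has one 144 bases before its start. Of all 32851 promoter windows, 11.6% hold the word in these 120 bases and 23.3% in 250. A match is a description of the letters and no binding site, and any part of it in the shared direction of the members was not tested.

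After Tyrobp, Trem2 had the highest level per kilobase of exon in both HA groups and in all sorted groups except Cx3cr1 Sort, where Fcgr3 lay between them. In sorted cells its level was 2464 ± 186 CPM in Cx3cr1 Sort, 2504 ± 270.0 in Cx3cr1 SortIP, 2456 ± 83.8 in Sall1 Sort and 2794 ± 693 in Sall1 SortIP (mean ± SD, n = 4 in each). The wide spread of the last group comes from mouse 9, at 3833 CPM, while the other 3 mice lay between 2409 and 2489.9. In Cx3cr1 HA the mice had 3739.5, 3591, 3242 and 3202 CPM, and in Cx3cr1 IgG 26.8, 47.0, 46.2 and 34.3. The groups were far apart, and the HA level exceeded IgG by 6.88 ± 0.25 (log2 fold change ± SE, a factor of 118, adjusted p = 5.05e-12). In Sall1 HA the level was 319.8 CPM in mouse 7, 288 in mouse 9, 296 in mouse 17 and 269 in mouse 21, against 31.2 to 37.3 in Sall1 IgG. That difference was 3.51 ± 0.16, a factor of 11.4 (adjusted p = 1.66e-11).

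Tyrobp, the signalling partner of TREM2, followed a similar pattern. Per kilobase of exon it had the highest mean level of the 8 genes in 7 of the 8 groups, from 3801 ± 672 CPM per kb in Cx3cr1 Sort to 6389 ± 2026 in Cx3cr1 HA among the microglial fractions. In the same groups Trem2 was at 2273 ± 171 and 3177 ± 243 CPM per kb. The ratio of Tyrobp to Trem2 per kilobase was 2.03 ± 0.73 in Cx3cr1 HA and 3.03 ± 0.40 in Sall1 HA, and between 1.56 and 2.29 on average in the sorted groups. In Cx3cr1 HA the Tyrobp level was 3169, 3261, 5219 and 2636 CPM in mice 1 to 4, so mouse 3 was highest. IgG of the same mice had 30.8 to 51.0 CPM, and the difference was 6.76 ± 0.28 (adjusted p = 1.42e-11). In Sall1 HA it was 345 to 567 CPM against 25.5 to 42.2 in IgG, a difference of 4.12 ± 0.20 (adjusted p = 2.76e-11).

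Fcer1g, the gamma chain shared by activating Fc receptors, fell into a higher and a lower pair of mice in Cx3cr1 HA. Mice 1 and 2 had 1079 and 1107 CPM there, and mice 3 and 4 had 535 and 509.7. In the sorted libraries of the same mice that pattern was absent, with 947, 908, 931 and 1030.4 CPM in those titled Sort and 936, 967, 1122 and 1294 in those titled SortIP, where mice 3 and 4 were the higher. The split in HA was not particular to Fcer1g. Over all genes with at least 10 counts in 2 libraries, their difference was measured as chi-square over its degrees of freedom. This ratio was 1.58 between Cx3cr1 HA of mice 1 and 2, 2.24 between mice 3 and 4, and 3.09 to 3.39 across these pairs. Cx3cr1 IgG had 15.9 to 29.5 CPM, well below every HA library, and HA exceeded IgG by 5.70 ± 0.34 (adjusted p = 5.76e-09). In the Sall1 line HA had 69.4 to 107 CPM and IgG 2.84 to 17.3, a difference of 3.14 ± 0.27 (adjusted p = 1.28e-08).

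Fcgr3, the low-affinity activating receptor CD16, had the highest level per kilobase of the 5 receptor genes Fcgr1, Fcgr2b, Fcgr3, Fcgr4 and Fcrls in every sorted group, at 1509 to 2508 CPM per kb. Not divided by length it had 3376 ± 435 CPM in Cx3cr1 Sort, 2332 ± 335 in Cx3cr1 SortIP, 2031 ± 189 in Sall1 Sort and 2933 ± 457 in Sall1 SortIP. In Cx3cr1 HA it held 1295, 1068, 1395 and 904 CPM. HA exceeded IgG by 5.02 ± 0.23 in the Cx3cr1 line (adjusted p = 3.59e-11) and by 1.99 ± 0.20 in the Sall1 line (adjusted p = 9.18e-08). The Sall1 values were 98.5 to 119.8 CPM in HA and 28.9 to 50.9 in IgG, with no overlap.

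The inhibitory receptor Fcgr2b had a low level, and its split from Fcgr3 is uncertain. Per kilobase, Fcgr3 exceeded Fcgr2b by a factor of 38.3 ± 9.13 in the libraries titled Cx3cr1 Sort and 21.8 ± 4.06 in those titled Cx3cr1 SortIP. In the Sall1 line the factor was 34.6 ± 8.10 in Sort and 37.3 ± 9.45 in SortIP (n = 4 each). Cx3cr1 HA had 73.1, 36.7, 57.4 and 27.9 CPM of Fcgr2b, which rest on 8 to 42 counts a library, and IgG 0.434 to 2.83, which rest on 1 to 7. HA was higher by 5.38 ± 0.48 (adjusted p = 9.66e-08). Fcgr4, an activating receptor of IgG2 subclasses, was similarly low at 21.4 to 52.8 CPM in Cx3cr1 HA and 0 to 1.36 in Cx3cr1 IgG. The library of mouse 3 had no Fcgr4 count in IgG, where a floor of 3 counts would be 1.35 CPM. Its HA level was higher by 5.42 ± 0.49 (adjusted p = 1.15e-07). In the Sall1 homogenates neither gene passed the low-count filter. Fcgr2b had 2.64 to 4.29 CPM in HA and 1.13 to 2.68 in IgG, with a slight overlap, and the HA level was the higher in each of the 4 mice. Without the filter it was higher in HA by 1.27 (adjusted p = 0.0362) and with all 8 groups in one fit by 1.15 (adjusted p = 0.0198), on 1 to 13 counts a library, whereas DESeq2 gave 1.27 (adjusted p = 0.0897). Fcgr4 had 0.411 to 1.71 CPM in HA and 0 to 1.34 in IgG, and no difference was detectable for it at this depth (adjusted p = 0.194 to 0.367 in the same 3 fits).

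Fcrls was prominent in sorted cells, with 1521 to 3193 CPM as the group means. Cx3cr1 HA held 1142, 1132, 973 and 1023 CPM and Cx3cr1 IgG 29.5 to 42.1, a difference of 5.21 ± 0.20 (adjusted p = 7.55e-12). Sall1 HA held 92.5 to 167 CPM, with mouse 21 highest, and Sall1 IgG 41.0 to 49.3. The difference was 1.82 ± 0.20 (adjusted p = 3.13e-07).

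**Figure D1:**
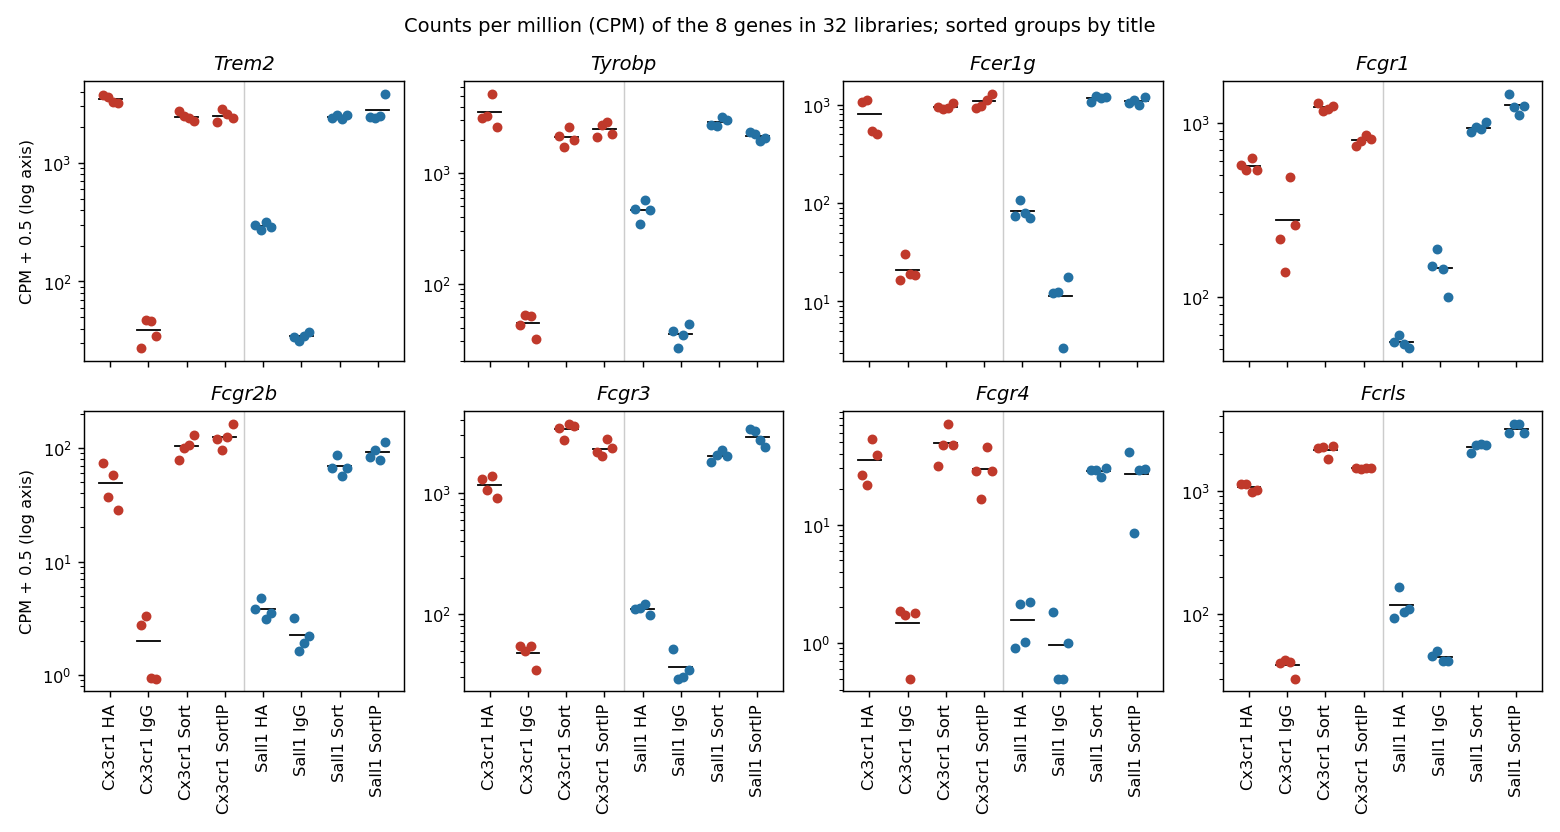
Level of each gene in every library, as CPM + 0.5 on a log axis, by group, with Cx3cr1 mice in red and Sall1 mice in blue and a bar at the mean of 4. Every gene but Fcgr1 has its lowest mean in an IgG group, with Fcgr2b and Fcgr4 nearly as low in Sall1 HA. Fcgr1 is lowest in Sall1 HA, at 50.1 to 59.8 CPM.

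Fcgr1, the high-affinity IgG receptor CD64, differed from the other 7 genes in the control precipitates. Its level in Cx3cr1 IgG was 214, 138, 488 and 257 CPM, against 567, 535, 629 and 534 in Cx3cr1 HA. The groups did not overlap, but HA was higher by only 1.45 ± 0.31 (a factor of 2.72, adjusted p = 0.00123). In the Sall1 line the order turned. Sall1 IgG held 145, 98.6, 149 and 187 CPM in mice 7, 9, 17 and 21, and Sall1 HA of the same mice 52.8, 50.1, 54.3 and 59.8. All 4 HA libraries lay below all 4 IgG libraries, and HA was lower by 1.01 on the log2 scale (-1.01 ± 0.20, adjusted p = 0.000179). These are not low counts, since Fcgr1 had 102 to 1088 counts in each IgG library.

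Set against the sorted cells of the same mouse, the IgG level of Fcgr1 was 28.4% ± 15.3 of its sorted level in the Cx3cr1 line and 13.9% ± 4.09 in the Sall1 line (n = 4 each, CPM over the CPM of both sorted libraries summed). Trem2 was at 1.55% ± 0.33 and 1.32% ± 0.10, and the other 6 genes had means of 0.946% to 3.02%. The lowest Fcgr1 mouse, at 8.91%, was above the highest value of any other member in any mouse, which was 4.69% for Fcgr4. The 12 microglia markers had means of 1.35% to 3.38% in Cx3cr1 IgG and 0.976% to 5.58% in Sall1 IgG, so Fcgr1 also lay above each of these. Per kilobase, Fcgr1 was 3.04 ± 1.33 times Trem2 in Cx3cr1 IgG but 0.0695 ± 0.0086 times Trem2 in Cx3cr1 HA and 0.21 ± 0.014 and 0.134 ± 0.012 times in the libraries titled Cx3cr1 Sort and SortIP. No other gene of the table overlaps Fcgr1, and the nearest, Hist2h2bb, is 12717 bases away. Where the Fcgr1 counts of the IgG precipitates come from was not tested.

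**Figure D2:**
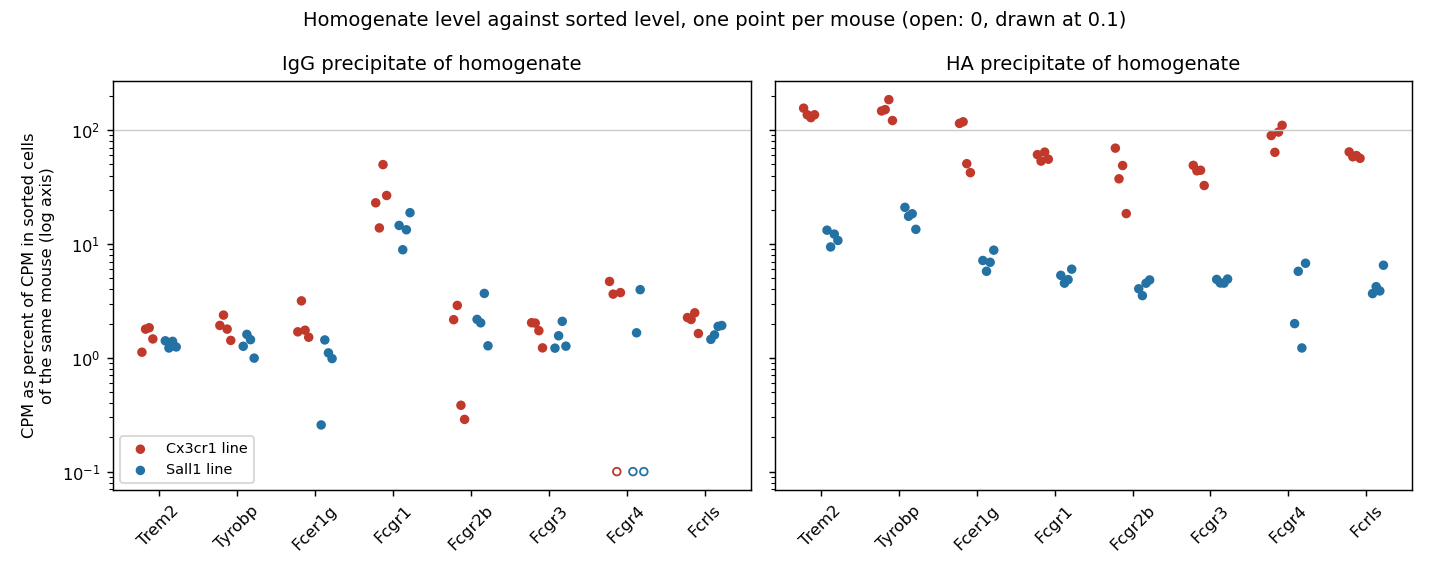
CPM in the IgG (left) and HA (right) precipitate of homogenate as a percent of the CPM in the sorted cells of the same mouse, on a log axis, with 1 point per mouse, Cx3cr1 in red and Sall1 in blue. In IgG the 8 Fcgr1 points lie between 8.91% and 49.9%, and every other gene is at or below 4.69%, with open points drawn at 0.1 for a count of 0. In HA the Fcgr1 points lie among those of the other genes.

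In HA precipitates Fcgr1 did lie among the rest. Its Cx3cr1 HA level was 58.6% ± 4.90 of the sorted level, close to the 59.9% ± 3.35 of Fcrls and the 42.6% ± 6.99 of Fcgr3. Trem2 and Tyrobp exceeded their sorted level there, at 140% ± 11.7 and 152% ± 26.3, and Fcer1g was at 81.7% ± 40.7. In Sall1 HA the percentages were 11.4% ± 1.67 for Trem2, 17.6% ± 3.13 for Tyrobp, 7.17% ± 1.27 for Fcer1g, 5.18% ± 0.64 for Fcgr1, 4.72% ± 0.21 for Fcgr3 and 4.57% ± 1.32 for Fcrls. Fcgr2b and Fcgr4 were at 43.6% ± 21.4 and 90.1% ± 19.5 in Cx3cr1 HA and at 4.23% ± 0.58 and 3.94% ± 2.74 in Sall1 HA, on few counts. Among the members, Tyrobp and Trem2 thus had the highest percentages in both lines, with no correction for exon length. With mouse block and length offset, Cx3cr1 HA against the libraries titled SortIP gave 0.28 for Trem2 and -0.09 for Tyrobp (log2). Sall1 HA against SortIP gave -3.94 and -3.44, still the least reduced of the members. The 12 microglia markers had means of 2.53% to 223% in Cx3cr1 HA, with a median of 30.8%. In Sall1 HA their means were 0.0605% to 14.6%, with a median of 3.51%. The highest marker in both lines was C1qa. A level above that of sorted cells in Cx3cr1 HA was therefore not particular to Trem2 and Tyrobp.

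Counted together, the 6 genes other than Fcgr2b and Fcgr4 were all higher in Cx3cr1 HA than in IgG, where 28.6% of all 10021 genes tested were called higher and 36.0% lower. Fcgr2b and Fcgr4 had at most 7 counts in an IgG library and passed the low-count filter only through HA, so a test of them could hardly give another sign. The median over the 8, which includes them, was 5.40, against -0.28 over all genes. In the Sall1 line 5 of the 6 genes tested were higher and Fcgr1 was lower, where 35.2% of 11545 genes were higher and 36.1% lower, and the median was 2.56 against -0.03 over all genes. Enrichment was larger for shorter mRNAs. Spearman's rho between the fold change and exon length was -0.857 over the 8 genes in the Cx3cr1 line and -0.943 over the 6 in the Sall1 line, and -0.368 and -0.527 over all genes tested. These describe genes that share the same libraries. With an offset for exon length and the mouse as a block, every call was kept, and Tyrobp came to 5.76 and 2.49 in the 2 lines, Trem2 to 6.30 and 2.45, and Fcer1g to 4.74 and 1.64. Fcgr1 remained apart, at 1.66 and -1.14.

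**Figure D3:**
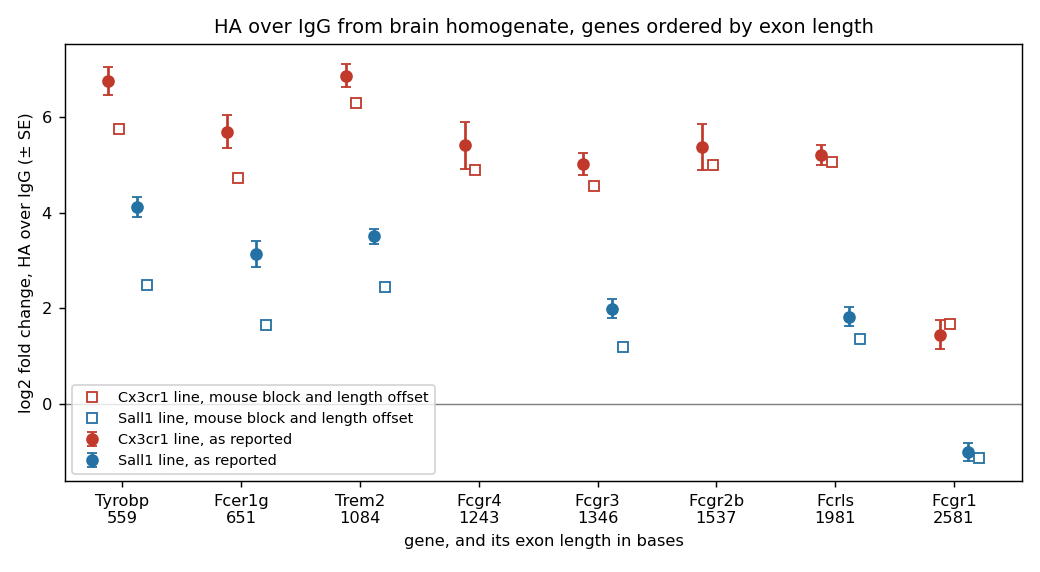
Log2 fold change of HA over IgG with its SE (filled points) for the Cx3cr1 line in red and the Sall1 line in blue, with genes ordered by exon length, and the value with mouse block and length offset (open squares). From the shortest gene, Tyrobp, to the longest, Fcgr1, values go from 6.76 to 1.45 in the Cx3cr1 line and from 4.12 to -1.01 in the Sall1 line. Fcgr2b and Fcgr4 were not tested in the Sall1 line.

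The HA enrichment was smaller in the Sall1 line for every member. The difference in enrichment (Sall1 minus Cx3cr1, an interaction over the 16 homogenate libraries) was -3.41 ± 0.25 for Trem2 (adjusted p = 3.32e-10), -2.68 ± 0.32 for Tyrobp, -2.60 ± 0.46 for Fcer1g, -2.52 ± 0.40 for Fcgr1, -4.21 ± 0.73 for Fcgr2b, -3.07 ± 0.29 for Fcgr3, -4.31 ± 1.14 for Fcgr4 and -3.44 ± 0.27 for Fcrls. All 8 were called lower, where 13.7% of 12308 genes were. Fcgr2b and Fcgr4 had at most 13 counts a library outside Cx3cr1 HA and passed the filter only through that group, so their sign adds nothing to the count, here or between the HA groups. Fcgr4 was no longer called without the IgG library of mouse 17 (-3.40, adjusted p = 0.131). Compared directly, all 8 were lower in Sall1 HA than in Cx3cr1 HA, where 25.7% of 9092 genes were, by 3.15 to 5.02 on the log2 scale. Tyrobp differed least (-3.15 ± 0.21, adjusted p = 9.29e-12) and Fcgr4 most (-5.02 ± 0.44, adjusted p = 3.41e-10). No member's HA libraries overlapped between lines, and the share of all genes without such overlap was not computed. All 12 microglia markers were lower too, with a median of -3.95, and the members' median was -3.59.

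The IgG precipitates of the lines, in contrast, gave no called member. By edgeR 0 of the 6 genes tested and by DESeq2 0 differed at an adjusted p under 0.05, and Fcer1g and Fcgr1 were the 2 with an unadjusted p under 0.05. Of all 11593 genes, 0.00863% were called, which is 1 gene. Fcgr1 was lower in Sall1 IgG by 0.93 on the log2 scale (-0.93 ± 0.35, adjusted p = 1) with overlapping groups.

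Direct precipitation from homogenate was next compared with precipitation after sorting. In the Cx3cr1 line 2 members were higher, 2 lower and 4 not called. Trem2 (0.70 ± 0.16, adjusted p = 0.000556) and Tyrobp (0.75 ± 0.20, adjusted p = 0.00182) were higher in HA than in the libraries titled SortIP, while Fcgr2b (-1.05 ± 0.26, adjusted p = 0.00108) and Fcgr3 (-0.76 ± 0.18, adjusted p = 0.000707) were lower. Of all 8198 genes tested, 32.6% were higher and 37.5% lower. Tyrobp groups overlapped, and those of the other 3 did not. Fcgr1 (-0.25 ± 0.15, adjusted p = 0.157) and Fcrls (-0.27 ± 0.16, adjusted p = 0.125) missed the threshold, although their groups did not overlap. Both were lower by DESeq2 and without TMM scaling. By description they were lower by 0.99 and 0.88, so that 4 of 8 genes were lower there, with Fcgr2b and Fcgr3, where 36.2% of 7714 genes were. Against the sums of both sorted libraries they were lower by 0.61 and 0.58 (adjusted p = 0.000687 and 0.00106). Trem2 and Tyrobp were no longer called with length offset and mouse block, at 0.28 (adjusted p = 0.106) and -0.09 (adjusted p = 0.625). With the same correction Fcer1g was called lower, at -0.98. Of the 12 microglia markers 3 were higher and 7 lower, with a median of -1.43, beside -0.21 for the members. Markers of other cells moved with this comparison too, as 4 of 6 border macrophage, 4 of 5 astrocyte, 6 of 6 oligodendrocyte and 6 of 6 neuron markers tested were higher in HA, and the part of either in it was not tested.

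In the Sall1 line all 8 genes were lower in HA than in SortIP, where 37.8% of 10494 genes were. Fcgr2b and Fcgr4 had at most 13 counts a library in Sall1 HA and passed the filter only through SortIP. Their sign thus adds nothing to the count, and they are included in the median and the rho below. Tyrobp was least reduced (-2.06 ± 0.17, adjusted p = 2.39e-13), then Trem2 (-3.09 ± 0.18) and Fcer1g (-3.56 ± 0.18). The 5 receptor genes Fcgr1, Fcgr2b, Fcgr3, Fcgr4 and Fcrls lay between -4.38 and -4.59. Between these values and exon length Spearman's rho was -0.714 over the 8 genes and -0.197 over all genes tested. With mouse block and length offset the values were closer together, at -3.44 for Tyrobp, -3.94 for Trem2, -4.54 for Fcgr1, -4.86 for Fcer1g and -4.97 to -5.25 for the other 4. Cell type markers moved with this comparison, since 12 of 12 microglia markers were lower, with a median of -4.96 beside the members' -4.44, and 8 of 8 astrocyte, 6 of 6 oligodendrocyte and 6 of 6 neuron markers were higher. Their part in it was not tested.

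Within sorted cells of the Sall1 line, where labels agree, SortIP and Sort differed in Fcgr1, Fcgr3 and Fcrls. Fcgr1 rose from 935 ± 53.6 CPM in Sort to 1264 ± 147 in SortIP (0.58 ± 0.12, adjusted p = 0.00546). Fcgr3 rose from 2031 ± 189 to 2933 ± 457 CPM (0.68 ± 0.13, adjusted p = 0.00234), and Fcrls from 2281 ± 167 to 3193 ± 316 CPM (0.63 ± 0.12, adjusted p = 0.00224). Each rose in 4 of 4 mice with no overlap between groups. These 3 of 8 stand against 5.45% of 8603 genes called higher. Trem2 (0.33 ± 0.14, adjusted p = 0.121), Tyrobp (-0.28 ± 0.12, adjusted p = 0.126) and Fcer1g (0.04 ± 0.12) did not pass. Tyrobp groups did not overlap, and it was called lower without TMM scaling (-0.43, adjusted p = 0.0223) and with mouse block and length offset (-0.33, adjusted p = 0.0384). Fcgr2b (0.57 ± 0.19, adjusted p = 0.0601) passed with the mouse as a block (0.59, adjusted p = 0.0299), as the samples of a mouse are paired, but not with the length offset too (0.50, adjusted p = 0.0705). Fcgr1 lost its call when all 8 groups shared one fit (0.54, adjusted p = 0.102). Of the 12 microglia markers 5 were higher and 0 lower here, and their part in these differences was not tested. The members' fold changes had a rho of 0.81 with exon length, against -0.181 over all genes tested.

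In the Cx3cr1 line the same 3 genes were called with the opposite sign under the titles. Fcgr1 was lower in the libraries titled SortIP by 0.75 (-0.75 ± 0.12, adjusted p = 0.000914), Fcgr3 by 0.66 (-0.66 ± 0.14, adjusted p = 0.0048, with overlapping groups) and Fcrls by 0.62 (-0.62 ± 0.12, adjusted p = 0.003), where 6.46% of 8704 genes were lower. By description the signs are the opposite by construction, so that these genes are higher in SortIP by the same amounts. Fcgr1 had 1298, 1161, 1201 and 1244 CPM in the libraries titled Sort and 730.0, 786, 848 and 809.9 in those titled SortIP, without overlap. Fcgr4 (-0.80 ± 0.28, adjusted p = 0.0683) passed with the mouse as a block (-0.83, adjusted p = 0.0152; with the length offset too -0.78, adjusted p = 0.0201), without the low-count filter (-0.78, adjusted p = 0.00757) or without the SortIP library of mouse 3 (-1.09, adjusted p = 0.0112). Trem2, Tyrobp, Fcer1g and Fcgr2b lay between -0.10 and 0.17 and were not called. The labels do not settle which fraction these 8 libraries hold, so no direction is drawn for the Cx3cr1 line. The microglia markers summed to between 49155 and 53832 CPM in the libraries titled Cx3cr1 Sort and between 39078 and 41709 in those titled Cx3cr1 SortIP, beside 38772 to 40926 in Sall1 Sort and 47214 to 51932 in Sall1 SortIP. Between lines, 2074 genes were called for Sort and 931 for SortIP by title, and 138 and 92 by description.

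**Figure D4:**
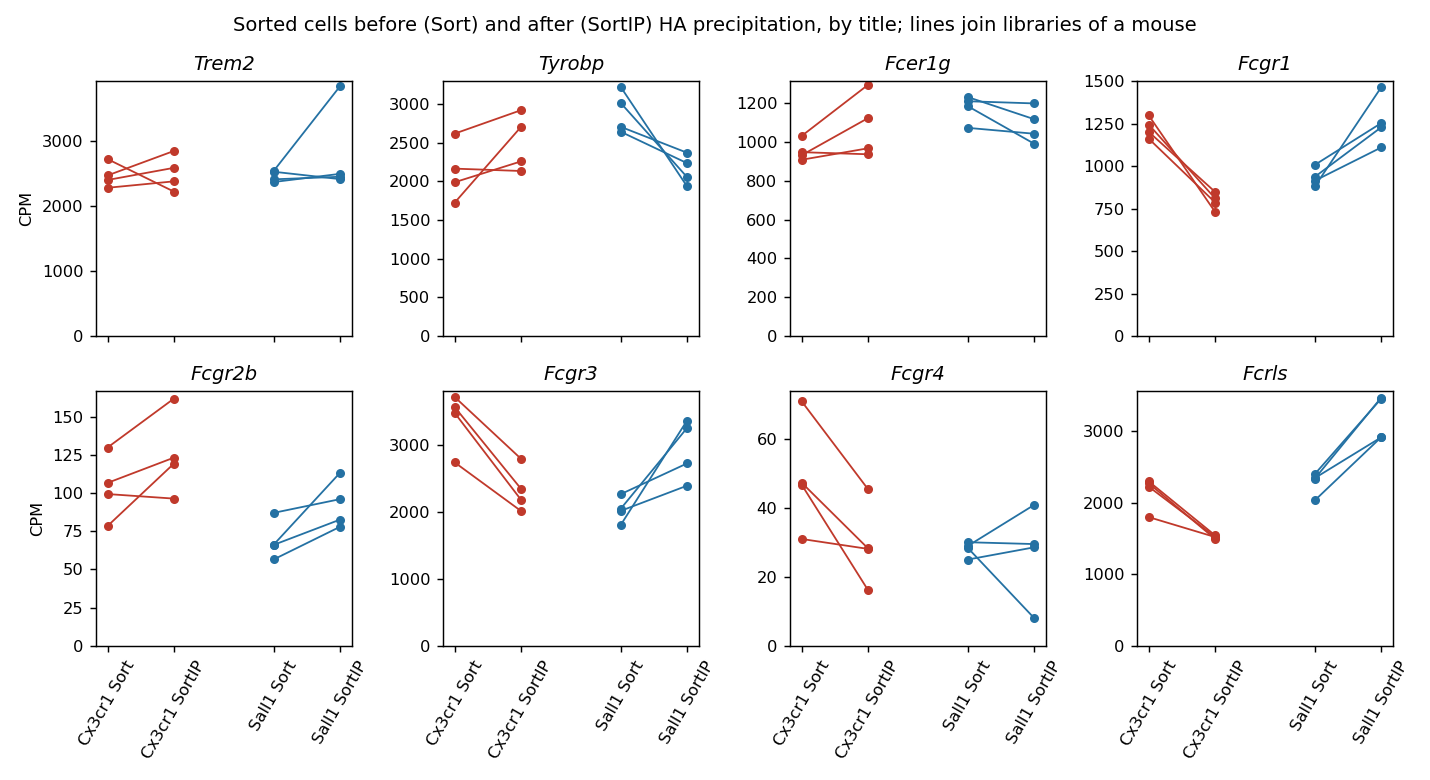
CPM of each gene in the libraries titled Sort and SortIP, on a linear axis from 0, with lines joining the libraries of a mouse, Cx3cr1 in red and Sall1 in blue. Fcgr1, Fcgr3 and Fcrls go down in all 4 Cx3cr1 mice by title and up in all 4 Sall1 mice. The highest Trem2 point is Sall1 SortIP of mouse 9, at 3833 CPM.

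Between lines 2 of the 8 genes differed in the sorted cells. In sums of both sorted libraries Fcrls was higher in the Sall1 line, at 2591 ± 183 CPM against 1784 ± 129 (0.56 ± 0.09, adjusted p = 0.00206, no overlap). Fcgr2b was lower, at 78.0 ± 10.9 CPM against 118 ± 23.4 (-0.58 ± 0.15, adjusted p = 0.0445, no overlap). Among all 9966 genes, 1.62% were higher and 1.05% lower. The sums weigh Sort and SortIP by library depth. In single fractions the Fcrls difference was -0.02 for Sort and 1.24 for SortIP by title, and 0.60 and 0.61 by description. For Fcgr2b these were -0.68 and -0.27 by title, and -0.85 and -0.12 by description. The Fcgr2b call is close to the threshold and was lost in 6 of 8 fits without 1 mouse, those without mouse 1, 3, 4, 7, 17 or 21 (adjusted p up to 0.157). The other 6 members missed the threshold. Their differences were 0.09 ± 0.10 for Trem2, 0.19 ± 0.10 for Tyrobp, 0.17 ± 0.10 for Fcer1g, 0.14 ± 0.09 for Fcgr1, -0.22 ± 0.10 for Fcgr3 and -0.38 ± 0.20 for Fcgr4. Border macrophage markers were higher in the Sall1 line, 4 of the 4 tested, with sums of 544 to 874 CPM against 327 to 451 per sorted library, and their part in the Fcrls difference was not tested.

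In CPM per kilobase the order of the 8 genes in Cx3cr1 HA was Tyrobp (6389 ± 2026), Trem2 (3177 ± 243), Fcer1g (1241 ± 507), Fcgr3 (866 ± 165), Fcrls (539 ± 41.8), Fcgr1 (219 ± 17.1), Fcgr2b (31.7 ± 13.3) and Fcgr4 (27.9 ± 11.3). Libraries of the neighbours Fcer1g and Fcgr3 overlapped, as did those of Fcgr2b and Fcgr4. Sall1 HA had the same order, from 826 ± 163 for Tyrobp to 0.866 ± 0.565 for Fcgr4, with an overlap between Fcgr3 and Fcrls. In Cx3cr1 IgG Fcgr1 came first, at 106 ± 58.4, and overlapped Tyrobp at 77.6 ± 16.9. The ratio of Fcgr3 to Fcgr1 per kilobase was 3.93 ± 0.51 in HA of the Cx3cr1 line and 3.90 ± 0.32 in HA of the Sall1 line, whereas the IgG groups had 0.406 ± 0.216 and 0.501 ± 0.184. Together the 8 genes made up 1.07% ± 0.14 of all gene counts in Cx3cr1 HA, 0.112% ± 0.0082 in Sall1 HA, 0.0465% ± 0.0157 and 0.0307% ± 0.0031 in IgG of these lines, and 1.09% to 1.35% as group means in sorted cells.

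Other genes of the pathway were read in the same homogenate comparisons, against the 28.6% and 35.2% of all genes called higher in the Cx3cr1 and Sall1 lines. Genes that are rare in IgG can pass the low-count filter only through HA and then tend to be called higher, so the counts of each list are no support for a shared direction. Of 30 genes of ITAM signalling, 21 could be tested in Cx3cr1 HA against IgG, of which 19 were higher and 1, the kinase gene Fyn, was lower (-1.51). Their median was 4.48, and 17 of the 30 passed the filter in the IgG libraries alone. The phosphatase gene Inpp5d (SHIP1), which restrains this pathway, was higher by 5.54 ± 0.24 (adjusted p = 1.71e-11), the actin regulator gene Nckap1l by 4.53 ± 0.26 and the adaptor gene Grb2 by 1.66 ± 0.20. Syk itself was higher by 5.02. In the Sall1 line 12 of 18 tested were higher, 5 were not called and 1, Pik3cd, was lower (-1.52), with a median of 1.19. Inpp5d was higher there by 1.75 ± 0.24. Of 17 other receptors and adaptors listed beside this pathway only Siglech, Clec5a and Hcst could be tested. All 3 were higher in both lines, although only 1 passed the filter in IgG alone. Hcst, the short adaptor mRNA beside Tyrobp, had the largest difference of these, 6.78 ± 0.30 and 3.69 ± 0.39. Siglech, which is also one of the microglia markers, had 4.01 ± 0.21 and 0.88 ± 0.21. Of 14 inhibitory receptors 7 of 7 tested were higher in the Cx3cr1 line and 4 of 4 in the Sall1 line, with 3 that passed the filter in IgG alone. The CD47 receptor gene Sirpa had 2.77 ± 0.20 and 1.61 ± 0.14 in these comparisons. Among the 11 remaining Fc receptors, the neonatal receptor gene Fcgrt was higher by 3.11 ± 0.22 and 1.82 ± 0.20, and Fcrl1 by 4.63 ± 0.59 in the Cx3cr1 line. Of the 10 with a row, 7 had no count in any Cx3cr1 HA library.

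Of 12 genes for TREM2 ligands and shedding, 7 of the 9 tested were higher and 1 lower in the Cx3cr1 line, and 5 were higher and 1 lower in the Sall1 line. Apoe, a lipoprotein that TREM2 binds, was higher in HA than in IgG by 3.44 ± 0.17 in the Cx3cr1 line and by 3.42 ± 0.15 in the Sall1 line, and its enrichment differed by -0.06 ± 0.21 (adjusted p = 0.869). Clu (clusterin) was lower in Cx3cr1 HA (-1.82 ± 0.23) and higher in Sall1 HA (2.03 ± 0.16). Adam17, a protease that sheds TREM2, was higher in Cx3cr1 HA (2.54 ± 0.26) and did not pass in Sall1 HA (0.44 ± 0.24, adjusted p = 0.106). In sorted cells Apoe was higher in the Sall1 line by 2.30 ± 0.25 (adjusted p = 0.00356), while Trem2 was within 0.09 ± 0.10. Astrocyte markers summed to between 5316 and 8199 CPM in Sall1 HA and to between 503 and 797 in Cx3cr1 HA. Border macrophage markers were higher in sorted cells of the Sall1 line. The part of either in the Apoe and Clu values was not tested.

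The 3 genes whose pattern over the 32 libraries was most like each member, by Pearson's r of log2 CPM among 7528 genes (7529 for Fcgr4) whose mean log2 CPM is 4 or more, were named for each. For Trem2 they were C1qb (0.996), Aif1 (0.994) and Laptm5 (0.993), for Tyrobp Aif1 (0.994), Pycard (0.991) and Cyba (0.991), and for Fcer1g Arhgdib (0.990), Cd68 (0.989) and Clic1 (0.989). For Fcgr3 they were Ctss (0.998), Itgb2 (0.995) and Lgals9 (0.994), for Fcgr2b Tspan14 (0.987), Cd300a (0.985) and Itgb2 (0.984), for Fcrls Ang (0.993), Rnase4 (0.992) and Spi1 (0.992), and for Fcgr4 Daglb (0.969), Parp14 (0.964) and Tapbp (0.964). Fcgr1 had the lowest top value of the 8, with Zfhx3 (0.967), Lcp1 (0.963) and Fmnl1 (0.958). Among the members r was highest between Trem2 and Tyrobp (0.990) and lowest between Fcgr1 and Tyrobp (0.681). Over the 16 sorted libraries alone r was -0.10 between Trem2 and Tyrobp, -0.52 between Tyrobp and Fcgr2b and 0.80 between Fcgr1 and Fcgr3. All of these are descriptions, since the libraries share mice and groups and most of the spread over 32 libraries lies between groups.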

How the data were processed

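Polyadenylated RNA of 32 libraries was deposited by the authors as 1 table of raw read counts over exons for 24411 genes, with no scaling. The tools named in the submitters' processing notes are HISAT 0.1.5, HOMER and bcl2fastq, with the build mm9. How multiply mapped reads and strand were treated: not given in the sources used here. No column of values lacked a sample (0).

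CPM were computed from the total gene counts of a library, and CPM per kb from the table's exon lengths. Each of 10 comparisons was fitted over all genes with edgeR 4.0.16 (R 4.3.3): robust quasi-likelihood test, TMM scaling, default filter with a minimum count of 10, Benjamini-Hochberg adjustment over all genes tested, calls at an adjusted p under 0.05. The fit was tested on simulated data. Adjusted p values in the text are from it. Alternatives included DESeq2 1.42.0, other scalings, no filter, 1 library left out, an exon length offset, the mouse as a block and groups by description.

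The mouse number pairs the samples, since the series' design says that each brain was divided. Deviations from group means correlated with a median r of 0.0456 over 48 pairs of libraries of a mouse and -0.0175 over 144 pairs of different mice. All 48 pairs of libraries within a group differed by more than sampling noise, with a ratio of chi-square to its degrees of freedom of at least 1.58 and at most 22.5. Depth limits precision most for Fcgr2b and Fcgr4, and floors of 3 counts cover counting error only.

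The members, the gene lists and the rule for named genes were chosen with earlier results of these data known. The rule names all 8 members, for each list the 3 genes of highest mean CPM, and for each member the 3 genes most like it. Fyn, Pik3cd and Syk were named after their values were seen. Lilrb4, Faim3 and Chi3l3 of the lists were not matched by symbol.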

Additional observations from a re-analysis of the deposited data

Results flagged for a closer look

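The HA enrichment over IgG differed between the lines for all 8 genes by the interaction test (Sall1 minus Cx3cr1, log2): -3.41 for Trem2, -2.68 for Tyrobp, -2.60 for Fcer1g, -2.52 for Fcgr1, -4.21 for Fcgr2b, -3.07 for Fcgr3, -4.31 for Fcgr4 and -3.44 for Fcrls. Fcgr2b and Fcgr4 had at most 13 counts a homogenate library outside Cx3cr1 HA. They passed the filter only through that group, so their sign adds nothing to the count. Fcgr4 was not called without the Sall1 IgG library of mouse 17 (-3.40, adjusted p = 0.131). Of the 6 genes tested against IgG in both lines, Fcgr1 changed sign, from 1.45 in the Cx3cr1 line to -1.01 in the Sall1 line.

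In 4 of the 64 groups of 4 libraries examined, 1 library stood apart from the other 3 by Dixon's ratio, where chance gives about 1 in 20. Trem2 was at 3833 CPM in Sall1 SortIP of mouse 9, above the other 3 mice of the group. Fcgr4 was at 0 CPM in Cx3cr1 IgG of mouse 3, on a group total of 9 counts. Fcrls was at 29.5 CPM in Cx3cr1 IgG of mouse 4 and at 1799.96 CPM in the library titled Sort of Cx3cr1 mouse 3, below the other mice in each case.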

How the results depend on the processing

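Over 76 values of the members and 1238 recomputations, 1179 kept direction and side of the threshold, 20 newly passed it, 11 no longer passed and 28 turned direction. No member turned direction in HA against IgG, in the difference of enrichment or in HA between lines. TMM scaling moved the median of all genes: without it the median went from -0.28 to -0.68 in Cx3cr1 HA against IgG, from -0.03 to -0.44 in the Sall1 line, from 0.05 to 0.24 in HA between lines, from -0.12 to -0.36 and 0.12 to -0.03 in HA against SortIP of the Cx3cr1 and Sall1 lines, and from 0.01 to 0.13 and 0.00 to -0.14 in SortIP against Sort.

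Groups by description turned every sign in Cx3cr1 SortIP against Sort, to 0.10 for Trem2, -0.11 for Tyrobp, -0.0553 for Fcer1g, 0.75 for Fcgr1, -0.17 for Fcgr2b, 0.66 for Fcgr3, 0.80 for Fcgr4 and 0.62 for Fcrls, by construction. In Cx3cr1 HA against SortIP they turned Fcgr4 to -0.39. The cause of the other turns was not tested. The replicate block with length offset turned Tyrobp to -0.0901 there and Fcer1g to -0.0205 in Sall1 SortIP against Sort. Fcer1g in the latter was also turned without TMM (-0.11), without the filter (-0.0042) and with all groups in one fit (-0.0017). Trem2 in Cx3cr1 SortIP against Sort came to 0.023 without TMM. With the replicate block alone, Fcgr4 in Cx3cr1 SortIP against Sort (-0.83) and Fcgr2b in Sall1 SortIP against Sort (0.59) newly passed, which gave 4 called genes in each, and no other call of a member changed.

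For sorted cells between lines, 4 members were called with the libraries titled Sort, all lower, and 3 with those titled SortIP, all higher. By description 2 were called with Sort, of which 1 was higher, and 1 with SortIP, which was higher. The sums gave 2, of which 1 was higher. With Sort by title Trem2 came to -0.11, Fcgr1 to -0.50 and Fcrls to -0.0205, with SortIP by title Tyrobp to -0.0477, Fcgr3 to 0.50 and Fcgr4 to 0.13, and with Sort by description Trem2 to -0.0087. The count over all genes was 266 in the sums (2.67% of 9966 tested), 2074 and 931 for Sort and SortIP by title, and 138 and 92 by description.

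Leaving out 1 library gave 1 to 2 called members in the sums. Fcer1g ranged from -0.345 to 0.0169 in Cx3cr1 HA against SortIP, from -0.0405 to 0.111 in Cx3cr1 SortIP against Sort and from -0.0163 to 0.0823 in the Sall1 line, where Fcgr4 ranged from -0.0165 to 0.379. All-gene counts went from 1115 to between 456 and 1386 in Cx3cr1 SortIP against Sort (537 with all groups in one fit), and from 906 to between 393 and 785 in the Sall1 line (538). Counts of at most 13 a library limit Fcgr2b and Fcgr4 in IgG and Sall1 HA.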
